A study of Danio rerio with 9 samples.

Results

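The genes described here encode 57 factors that make ribosomes, from steps in the nucleolus to later maturation and export. They were chosen by their roles, with earlier results of these data known, and each was looked up by its symbol, ignoring case, among the 23707 genes of the count table. Of the 57 symbols, 55 were found. They comprise proteins of the small nucleolar ribonucleoproteins (snoRNPs), of the small subunit processome, of the maturation of the small and the large ribosomal subunit, and the abundant nucleolar proteins nucleolin and nucleophosmin. The symbols *pes* and *utp14a* were not matched. The table holds *PES1* and *UTP14C* under human-style symbols, and their values are given separately because they were looked for only after the rule had missed them.

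RNAseq was performed on GFP+ cells sorted from adult zebrafish retinas that carried the *gfap:GFP* transgene, in which the *gfap* promoter labels Müller glia (MG) and, after injury, the progenitors that derive from them. There were 3 groups with 3 libraries each: MG of uninjured wild-type (Wt) retinas, MG of Wt retinas 2 days after a needle poke injury (2 days post injury, dpi), and MG of *mych*-/- retinas at 2 dpi by the same injury. The *mych*-/- fish belong to a line with a frameshift in *mych*, a Myc family gene. No uninjured *mych*-/- group was made, so a difference between genotypes that precedes the injury and one that follows it cannot be told apart. The design addressed which genes respond to injury in Wt MG and which of those differ in the mutant. Library totals ran from 46835977 to 77133615 counts. The study describes its measurements as made on distinct samples but not how the pooled retinas were divided among the libraries, so the p-values measure the spread between these libraries, and whether that spread is between fish is not known.

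Ribosomes are built around a long precursor RNA that is transcribed in the nucleolus. Box C/D snoRNPs methylate it and box H/ACA snoRNPs convert chosen uridines to pseudouridine, while the processome folds the part that becomes the small subunit and further factors shape the large subunit and carry it to the cytoplasm. Growing and dividing cells make many ribosomes, and Myc proteins are known activators of the genes for these factors in vertebrates and flies. Quiescent MG of the zebrafish retina re-enter the cell cycle after injury, and their progeny replace lost neurons.

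For *rrp9* and *imp4*, which the study also assayed by qPCR, the designed primers are shown. The primers were not matched to transcripts here, so which transcripts that assay amplified was not checked. No part of them is capitalised.
rrp9 forward: gtgcctcaggctcccataat
rrp9 reverse: ccatcgtcccaatctgtgct
imp4 forward: agtttctcaaaatgctgcgac
imp4 reverse: actcctgcccacttgtactc

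Levels are given in CPM, which are counts relative to the scaled library total. Since CPM does not account for transcript length, a level is compared between libraries and not between genes. Triplets of values list replicates 1, 2 and 3 of a group. A gene was called changed at an adjusted p of at most 0.05 in edgeR's quasi-likelihood test with Benjamini-Hochberg adjustment over the 20484 genes tested, and a log2 fold change beyond 0.5 in either direction. All 55 factors passed the filter on low counts. All adjusted p-values below come from that test, and all changes are log2 fold changes with their standard error (SE) unless a plain fold is named. Each SE was derived from the test, as the absolute change divided by the square root of its F statistic.

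Levels of cell type markers moved with injury. Of the rod markers tested, 13 of 16 were called lower, with sums of 15098 to 29757 CPM in the uninjured libraries and 1140.2 to 3496 CPM in Wt MG at 2 dpi. Of the cone markers, 12 of 14 were called lower, with sums of 32802 to 51344 CPM and 9969.9 to 18559 CPM. Also called lower were 8 of 9 bipolar, 12 of 16 amacrine and ganglion cell and 4 of 6 horizontal cell markers, and 1 bipolar marker was called higher. Of 6 endothelial markers, 1 was called higher and 1 lower. Of the MG markers, 8 of 14 were called higher with injury, with sums of 8827 to 14474 CPM before and 15235 to 24888 CPM after. Microglia markers also rose, with 6 of 11 called higher and 1 lower and sums of 109 to 155 CPM before and 250.1 to 268 CPM after. Cell cycle genes rose as well, with 12 of 13 gene IDs called higher. Over all tested genes, 22.3% were called higher and 19.8% lower with injury. Between the genotypes at 2 dpi no marker of the 9 cell types listed was called, but sums of some lists were higher in *mych*-/- MG. Summed bipolar markers were 559 to 663 CPM in Wt and 774 to 903 CPM in *mych*-/- MG, and summed endothelial markers 26.2 to 55.3 CPM and 59.6 to 76.3 CPM, both without overlap. Ranges overlapped for horizontal cell markers, at 128 to 174.6 CPM and 174.2 to 259 CPM, and for amacrine and ganglion cell markers, at 877 to 1873 CPM and 1357 to 2750 CPM. The median change between genotypes was 1.08 for amacrine and ganglion cell, 0.63 for bipolar and 0.52 for horizontal cell markers. It was 0.08 for endothelial, 0.03 for cone, -0.11 for microglia, -0.15 for rod, -0.21 for MG and -1.54 for retinal pigment epithelium markers. Of each list, at most 2 markers were at 0 in every library of a group. Summed markers of the retinal pigment epithelium were 403 CPM in Wt 2 dpi replicate 1 and 25.9 to 93.7 CPM in the other 8 libraries. The part of these other cells in the changes below was not tested. In sorted bulk material, fewer cells with high expression and less RNA per cell cannot be told apart.

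The ribosome biogenesis factors rose together in Wt MG at 2 dpi. Of the 55 genes, 53 were called higher and 0 lower, in a comparison in which 22.3% of all tested genes were called higher and 19.8% lower. The median change was 2.24, a 4.72-fold rise, against -0.02 over all genes. Of the 53 called genes, 51 rose at least 2-fold, 36 at least 4-fold and 10 at least 8-fold. For 53 genes the lowest Wt 2 dpi library exceeded the highest uninjured one, a separation found for 28.7% of all tested genes. The exceptions in both counts were *utp18* and *nob1*. Together the 55 genes took 0.125% to 0.150% of the scaled library total in the uninjured libraries and 0.546% to 0.688% in the Wt 2 dpi libraries.

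In *mych*-/- MG at 2 dpi these factors were lower than in Wt MG at 2 dpi. Here 30 of the 55 genes were called lower and 0 higher, while 1.33% of all tested genes were called lower and 0.366% higher. The median change was -1.08, that is 2.11-fold lower, against 0.03 over all genes, and 54 of 55 changes were below 0, compared with 47.9% of all genes. All *mych*-/- libraries lay below all Wt 2 dpi libraries for 51 genes, against 14.5% of all tested genes. Of the 25 genes without a call, 21 still showed no overlap between the genotypes. The 55 genes took 0.261% to 0.322% of the scaled library total in the mutant libraries, values that lie between those of the other groups.

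The number of calls between genotypes depended on single libraries, whereas the median change over the 55 genes moved less. Without Wt 2 dpi replicate 2, 1 of the 30 calls was left, while 0.0282% of all genes were called lower, and without replicate 3 of that group 4 were left, beside 0.169%. Without *mych*-/- replicate 1 there was 1 call, beside 0.0328% of all genes, and without replicate 3 there were 2, beside 0.0661%. Without Wt 2 dpi replicate 1 there were 40 calls (2.56% of all genes) and without *mych*-/- replicate 2 there were 38 (2.94%). The median change stayed between -1.20 and -0.98 when any of the 9 libraries was left out. DESeq2 on all libraries called 46 of the 55 genes lower, and 5.55% of all genes. The gene that stayed called in all 17 alternative analyses was *npm1a*.

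Compared with uninjured MG, the mutant MG at 2 dpi were still higher. There were 44 genes called higher and 0 lower, against 16.3% of all tested genes called higher and 9.53% lower, and the median change was 1.23, a 2.35-fold rise against the 4.72-fold rise in Wt. This comparison shares its uninjured libraries with that of injury and its mutant libraries with that of genotype. For 53 genes the mutant mean lay between the uninjured mean and the Wt 2 dpi mean. The exceptions were *utp18*, above both, and *nob1*, below both. How many of all tested genes show this order of means was not counted.

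**Figure D1:**
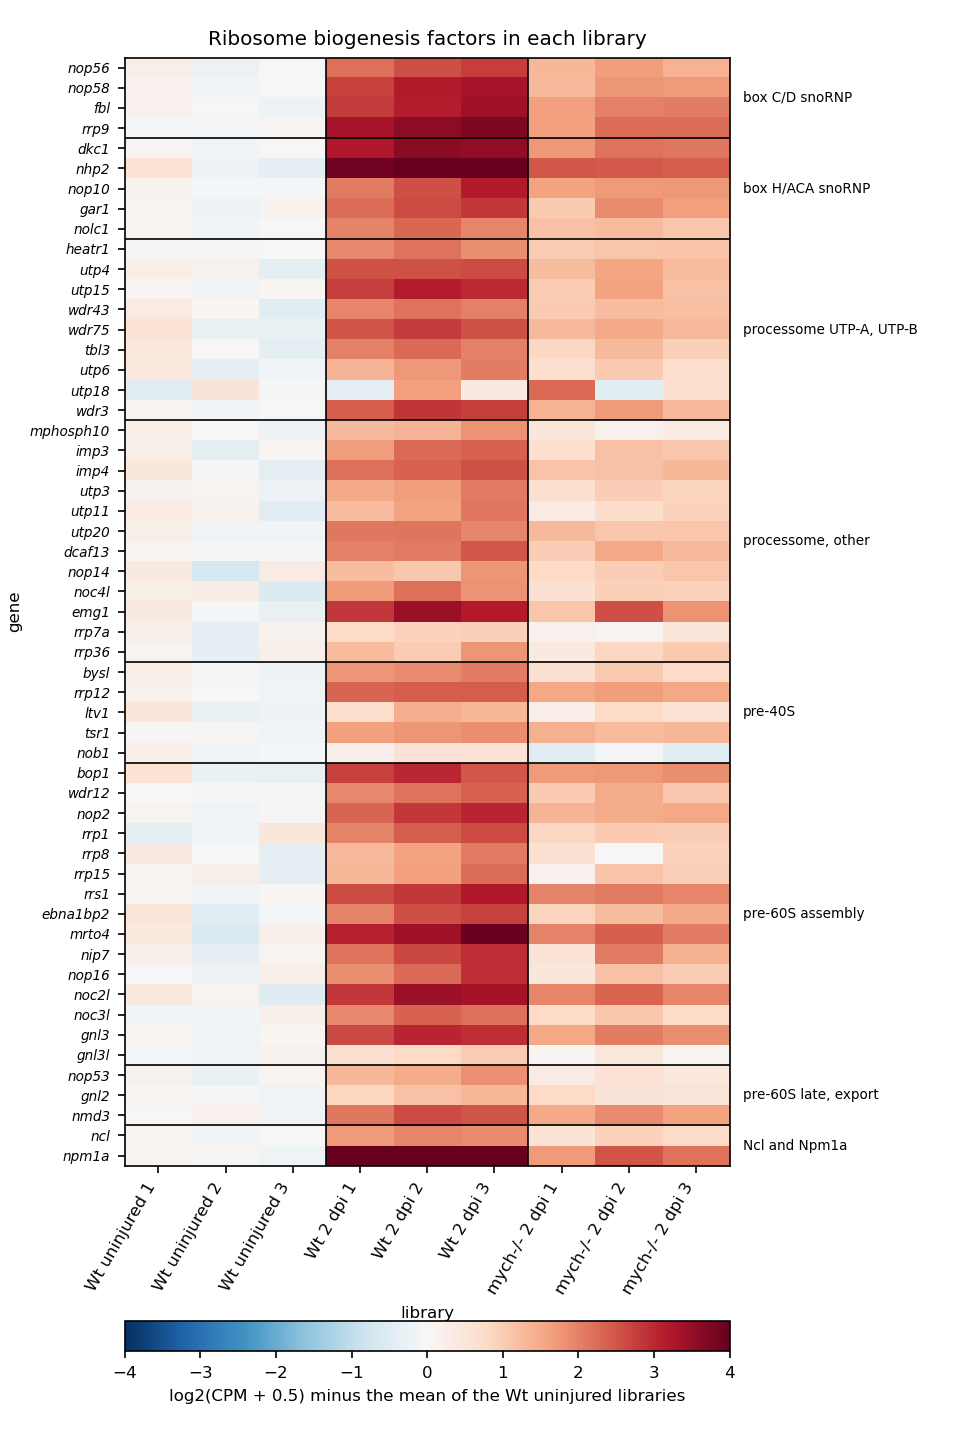
Level of each of the 55 factors (rows, by assembly step) in each of the 9 libraries (columns), as log2(CPM + 0.5) minus the mean of the uninjured libraries; the colour scale stops at 4, which *npm1a* and *nhp2* exceed in Wt MG at 2 dpi. The Wt 2 dpi libraries are the darkest block and the mean of the *mych*-/- libraries is intermediate for 53 of 55 genes, while *utp18* follows no group. For some genes, such as *mphosph10*, single *mych*-/- libraries overlap the uninjured ones.

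The box C/D snoRNPs, whose RNAs guide ribose methylation, were represented by 4 genes. All 4 rose with injury, by a median of 3.13, and all 4 were lower in *mych*-/- MG, by a median of -1.37. Beside the counts of each step, 22.3% of all tested genes were called higher with injury and 1.33% lower between genotypes. The methyltransferase gene *fbl* (fibrillarin) was read at 32.2, 28.8 and 24.7 CPM in uninjured MG, 199.8, 254 and 305 CPM in Wt MG at 2 dpi and 90.3, 117 and 118 CPM in *mych*-/- MG. Its groups did not overlap, and the mutant libraries lay nearer to the uninjured than to the Wt 2 dpi level in CPM. The change was 3.15 ± 0.22 with injury (adjusted p = 1.53e-06) and -1.22 ± 0.21 between genotypes (adjusted p = 0.0217).

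The scaffold proteins that hold fibrillarin in the particle are Nop56 and Nop58. Levels of *nop56* were 54.0, 39.0 and 46.7 CPM in uninjured MG, 214, 277 and 316 CPM in Wt MG at 2 dpi and 115, 147 and 123 CPM in *mych*-/- MG. The 3 groups were again separate, with the smallest rise of the box C/D genes, 5.77-fold, and a level 2.09-fold lower in the mutant. Levels of *nop58* were 30.9, 24.0 and 26.7 CPM in uninjured MG, 184, 249 and 269 CPM in Wt MG at 2 dpi and 66.7, 92.2 and 88.5 CPM in *mych*-/- MG. Here, too, no library of one group reached another, and the change was 3.11 ± 0.22 with injury and -1.51 ± 0.21 between genotypes (adjusted p = 0.0126).

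The fourth gene, *rrp9* (ENSDARG00000041991), encodes the protein particular to the U3 snoRNP, which directs cleavage of the precursor instead of methylation. It was read at 3.71, 3.73 and 4.18 CPM in uninjured MG, 42.3, 52.0 and 57.4 CPM in Wt MG at 2 dpi and 13.2, 20.0 and 20.2 CPM in *mych*-/- MG. Uninjured levels were low and close to each other, and all mutant libraries lay well below the lowest Wt 2 dpi library. With injury *rrp9* rose 13.0-fold (3.70 ± 0.25, adjusted p = 1.26e-06), the largest rise of the box C/D genes, and it was 2.84-fold lower in *mych*-/- MG (-1.51 ± 0.23, adjusted p = 0.0168). In the mutant it remained above the uninjured level by 2.20 ± 0.24 (adjusted p = 5.65e-05).

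Of the 5 genes of the box H/ACA snoRNPs, which make pseudouridine, all 5 rose with injury and 3 were called lower in the mutant, with medians of 2.81 and -1.02. The pseudouridine synthase gene *dkc1* (dyskerin) had 18.8, 16.1 and 17.9 CPM in uninjured MG, 165, 220.2 and 209.5 CPM in Wt MG at 2 dpi and 60.05, 80.6 and 77.3 CPM in *mych*-/- MG. The groups were far apart, with the mutant libraries in between. The rise with injury was 11.3-fold (3.49 ± 0.20, adjusted p = 4.59e-07) and the genotype change -1.45 ± 0.19 (adjusted p = 0.0102). Its partner in the core of the particle, *nhp2* (ENSDARG00000069422), had 4.02, 2.14 and 1.87 CPM in uninjured MG, 45.0, 55.6 and 70.6 CPM in Wt MG at 2 dpi and 16.7, 16.0 and 15.4 CPM in *mych*-/- MG. Uninjured levels were low, and the mutant libraries were close to each other and apart from both other groups. Its change of 4.41 ± 0.33 with injury (adjusted p = 2.20e-06) was the largest of the 55 genes, at 21.3-fold, and its genotype change was -1.83 ± 0.29 (adjusted p = 0.019).

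The chaperone of snoRNP assembly, *nolc1*, rose least of the H/ACA genes, from 71.1, 62.3 and 67.2 CPM to 265, 332 and 261 CPM, and was read at 151, 159.8 and 143 CPM in the mutant. Its groups were separate, with a 4.28-fold rise and a level 1.89-fold lower in *mych*-/- MG (adjusted p = 0.0325). The other core proteins, *nop10* and *gar1*, also separated the genotypes in every library but missed the threshold, with changes of -1.02 ± 0.28 (adjusted p = 0.0872) and -1.02 ± 0.25 (adjusted p = 0.0615).

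**Figure D2:**
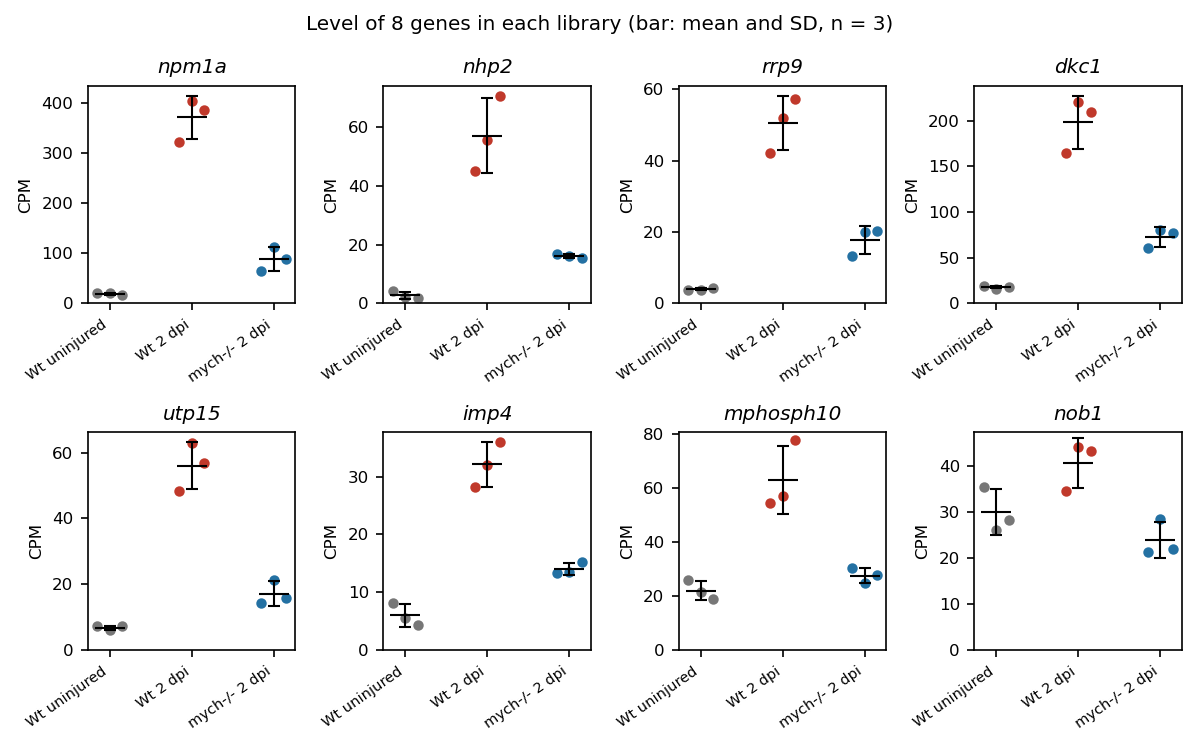
CPM of 8 genes in each library (points), with the mean and SD of the 3 libraries of each group (bars); each panel has its own linear axis from 0. In *npm1a*, *nhp2*, *rrp9*, *dkc1*, *utp15* and *imp4* the *mych*-/- libraries sit between the uninjured and the Wt 2 dpi libraries, in *mphosph10* they overlap the uninjured ones, and in *nob1* the uninjured libraries overlap both other groups.

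The UTP-A and UTP-B complexes are the first large building blocks of the small subunit processome. Of their 9 genes, 8 rose with injury and 6 were called lower in the mutant, with medians of 2.10 and -1.08. UTP-A binds the leading end of the precursor. Its gene *utp15* was read at 7.11, 5.97 and 7.10 CPM in uninjured MG, 48.5, 62.9 and 56.9 CPM in Wt MG at 2 dpi and 14.2, 21.4 and 15.8 CPM in *mych*-/- MG. The mutant libraries were nearer to the uninjured than to the Wt 2 dpi libraries. With injury *utp15* changed by 3.06 ± 0.24, the largest rise of these 9 genes, and between genotypes by -1.71 ± 0.22 (adjusted p = 0.0102), which is 3.28-fold lower.

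The remaining UTP-A genes behaved alike in direction. The large scaffold gene *heatr1* had 28.7, 31.6 and 30.5 CPM in uninjured MG, 117, 139 and 111 CPM in Wt MG at 2 dpi and 62.0, 65.5 and 66.6 CPM in *mych*-/- MG. Its mutant libraries formed a narrow range, with a change of -0.92 ± 0.16 between genotypes (adjusted p = 0.0253). Levels of *utp4* were 10.1, 9.52 and 6.29 CPM in uninjured MG, 51.3, 51.9 and 53.8 CPM in Wt MG at 2 dpi and 21.0, 26.0 and 21.2 CPM in *mych*-/- MG. They were nearly equal within Wt MG at 2 dpi, and the mutant was 2.304-fold lower. The repeat protein gene *wdr43* was at 41.8, 35.1 and 24.9 CPM in uninjured MG, 130.1, 150.4 and 136 CPM in Wt MG at 2 dpi and 68.4, 78.3 and 76.9 CPM in *mych*-/- MG. Its genotype change of -0.90 ± 0.20 had the highest adjusted p of the called genes, 0.0487. A further member, *wdr75*, was at 23.7, 12.8 and 13.2 CPM in uninjured MG, 93.6, 113 and 95.3 CPM in Wt MG at 2 dpi and 39.9, 45.9 and 39.9 CPM in *mych*-/- MG. It was 2.40-fold lower in the mutant, and its first uninjured library stood above the other two.

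In UTP-B, which joins after UTP-A, *wdr3* was read at 18.0, 15.7 and 16.8 CPM in uninjured MG, 92.9, 126 and 116 CPM in Wt MG at 2 dpi and 44.6, 55.5 and 42.3 CPM in *mych*-/- MG. The groups were separate, with changes of 2.73 ± 0.20 and -1.24 ± 0.19 (adjusted p = 0.0162 between genotypes). Its partners *tbl3* and *utp6* rose 4.29-fold and 3.34-fold with injury. Neither was called between genotypes (adjusted p = 0.0507 and 0.08), although their mutant libraries all lay below those of Wt.

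The UTP-B gene *utp18* (ENSDARG00000102618) could not be assessed. It had 0, 20 and 9 counts in uninjured MG, 2, 129 and 24 counts in Wt MG at 2 dpi, and 165, 0 and 37 counts in *mych*-/- MG. Each group held a library with at most 2 counts, and the mutant held both the highest library and one at 0. Its changes were 1.73 ± 2.12 with injury (adjusted p = 0.561) and 0.70 ± 2.06 between genotypes (adjusted p = 0.91), with standard errors larger than the changes. No other factor had fewer than 87 counts in any library.

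Another 12 genes encode further parts of the processome. All 12 rose with injury, by a median of 1.87, and 4 were called lower in the mutant, with a median of -0.99 over the 12. The U3-bound complex of Mphosph10, Imp3 and Imp4 is among them. For *mphosph10* the levels were 25.7, 21.3 and 18.8 CPM in uninjured MG, 54.6, 57.1 and 77.7 CPM in Wt MG at 2 dpi and 30.2, 24.8 and 27.6 CPM in *mych*-/- MG. Here the mutant libraries overlapped the uninjured ones and were 0.33 ± 0.21 from them (adjusted p = 0.282). The genotype change was -1.20 ± 0.21 (adjusted p = 0.0253), after a rise of 1.52 ± 0.21 with injury.

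Levels of *imp4* (ENSDARG00000054540) were 8.12, 5.52 and 4.29 CPM in uninjured MG, 28.3, 32.1 and 36.1 CPM in Wt MG at 2 dpi and 13.4, 13.5 and 15.2 CPM in *mych*-/- MG. The groups did not overlap, and *imp4* rose 5.38-fold (adjusted p = 3.56e-05) and was 2.29-fold lower in *mych*-/- MG (-1.20 ± 0.26, adjusted p = 0.0459). Levels of *imp3* (ENSDARG00000115266) were 9.78, 6.14 and 8.57 CPM in uninjured MG, 26.7, 40.5 and 43.1 CPM in Wt MG at 2 dpi and 13.2, 18.8 and 17.4 CPM in *mych*-/- MG. They showed the same order of groups without overlap and a genotype change of nearly the same size, -1.16 ± 0.27, but the adjusted p of 0.0546 was just above the threshold.

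The scaffold gene *utp20* was at 26.9, 21.1 and 21.4 CPM in uninjured MG, 100.4, 103 and 90.9 CPM in Wt MG at 2 dpi and 57.3, 49.6 and 50.4 CPM in *mych*-/- MG. Its mutant libraries were close together and the change was -0.91 ± 0.17 (adjusted p = 0.0347). For *dcaf13*, the counterpart of yeast Sof1, levels were 23.2, 20.2 and 20.4 CPM in uninjured MG, 88.2, 91.4 and 122 CPM in Wt MG at 2 dpi and 42.5, 62.3 and 52.5 CPM in *mych*-/- MG. The genotypes did not overlap, at -0.94 ± 0.20 (adjusted p = 0.0431).

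The widest range of injury responses in the processome lay between *emg1* and *rrp7a*. The methyltransferase gene *emg1* was at 3.01, 2.07 and 1.72 CPM in uninjured MG, 18.7, 29.2 and 24.2 CPM in Wt MG at 2 dpi and 5.42, 15.8 and 8.85 CPM in *mych*-/- MG, a 10.6-fold rise. Its mutant libraries were spread wide below the Wt libraries, and the change of -1.26 ± 0.39 was not called (adjusted p = 0.11). The gene *rrp7a* was at 27.3, 18.9 and 26.0 CPM in uninjured MG, 41.9, 45.2 and 46.0 CPM in Wt MG at 2 dpi and 27.0, 25.7 and 33.8 CPM in *mych*-/- MG. It rose 1.84-fold, and the mutant overlapped the uninjured libraries. Genotypes overlapped for *nop14* and *rrp36*, which had changes of -0.42 ± 0.30 and -0.62 ± 0.28.

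Of the 5 factors of the later maturation of the small subunit precursor, 4 rose with injury and 2 were called lower in the mutant, with medians of 1.78 and -0.76. The export factor gene *rrp12* had the largest rise, with 39.5, 34.5 and 31.6 CPM in uninjured MG, 177, 192 and 189.6 CPM in Wt MG at 2 dpi and 103, 112 and 104 CPM in *mych*-/- MG. Libraries of each group were close together, and the genotype change of -0.81 ± 0.16 was the smallest among the called genes (adjusted p = 0.0384). The gene *bysl*, the counterpart of yeast Enp1, was at 36.1, 29.8 and 26.5 CPM in uninjured MG, 105, 114 and 128 CPM in Wt MG at 2 dpi and 46.9, 63.6 and 52.2 CPM in *mych*-/- MG. It was 2.13-fold lower in the mutant (adjusted p = 0.0253), with no overlap.

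The endonuclease gene *nob1* (ENSDARG00000016080), whose product makes the last cut of the small subunit RNA, was not called in any comparison. Its levels were 35.6, 26.1 and 28.3 CPM in uninjured MG, 34.5, 44.2 and 43.3 CPM in Wt MG at 2 dpi and 21.4, 28.5 and 22.02 CPM in *mych*-/- MG. The uninjured libraries overlapped both other groups, while the mutant libraries all lay below those of Wt at 2 dpi. The changes were 0.44 ± 0.21 with injury (adjusted p = 0.116), -0.76 ± 0.21 between genotypes (adjusted p = 0.0858) and -0.32 ± 0.21 in the mutant against uninjured MG (adjusted p = 0.294).

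The genes of large subunit assembly formed the largest group. All 15 rose with injury, by a median of 2.499, 8 were called lower in the mutant, with a median of -1.17, and all 15 separated the genotypes in every library. Of all tested genes, 14.5% had all mutant libraries below all Wt 2 dpi libraries. The stalk placeholder gene *mrto4* was at 12.5, 6.09 and 10.8 CPM in uninjured MG, 82.6, 103 and 153 CPM in Wt MG at 2 dpi and 38.4, 51.2 and 41.3 CPM in *mych*-/- MG. It had the largest rise of the 15, 11.5-fold (3.53 ± 0.32, adjusted p = 7.45e-06), and its genotype change was -1.37 ± 0.29 (adjusted p = 0.0419). The gene with the largest genotype change here, *nop16*, had 6.59, 5.42 and 7.69 CPM in uninjured MG, 25.1, 33.2 and 53.3 CPM in Wt MG at 2 dpi and 9.13, 15.1 and 13.7 CPM in *mych*-/- MG. Its mutant libraries all lay above the uninjured ones, at -1.55 ± 0.31 from Wt (adjusted p = 0.0394). Against uninjured MG they were called higher, at 0.95 ± 0.31 (adjusted p = 0.0434).

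The rRNA methyltransferase gene *nop2* was at 14.2, 11.9 and 13.5 CPM in uninjured MG, 67.9, 95.6 and 112 CPM in Wt MG at 2 dpi and 34.9, 37.9 and 39.2 CPM in *mych*-/- MG. The mutant libraries were narrowly spread, at -1.30 ± 0.21 (adjusted p = 0.0189). The gene *rrp1*, for an early large subunit factor, was at 9.91, 12.0 and 17.9 CPM in uninjured MG, 52.5, 71.4 and 80.8 CPM in Wt MG at 2 dpi and 23.3, 27.2 and 25.9 CPM in *mych*-/- MG. It showed the second largest genotype change of the group, -1.42 ± 0.25 (adjusted p = 0.0253). The gene *noc3l*, whose yeast counterpart acts early in large subunit assembly, was at 13.6, 13.6 and 16.9 CPM in uninjured MG, 56.9, 77.3 and 68.6 CPM in Wt MG at 2 dpi and 25.8, 32.0 and 25.6 CPM in *mych*-/- MG. It was 2.43-fold lower in the mutant, without overlap.

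The GTPase gene *gnl3* (nucleostemin) was at 25.6, 21.1 and 24.96 CPM in uninjured MG, 151, 198 and 189 CPM in Wt MG at 2 dpi and 70.8, 99.4 and 88.6 CPM in *mych*-/- MG. It was 7.51-fold higher with injury and 2.08-fold lower in the mutant (adjusted p = 0.0272). Levels of *rrs1*, whose product helps to bring in the smallest ribosomal RNA, were 8.82, 7.37 and 8.68 CPM in uninjured MG, 53.3, 61.3 and 79.4 CPM in Wt MG at 2 dpi and 34.2, 36.5 and 33.6 CPM in *mych*-/- MG. The mutant libraries were almost equal and far above the uninjured ones, at -0.89 ± 0.20 from Wt (adjusted p = 0.0478). The gene *wdr12*, a partner of Bop1 and Pes, was at 11.6, 12.0 and 10.9 CPM in uninjured MG, 44.5, 53.1 and 60.9 CPM in Wt MG at 2 dpi and 24.0, 33.0 and 24.9 CPM in *mych*-/- MG. The genotypes were separate, at -0.95 ± 0.21 (adjusted p = 0.0447).

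At the other end, *gnl3l*, for a GTPase related to nucleostemin, was at 22.8, 21.4 and 26.8 CPM in uninjured MG, 36.1, 41.2 and 48.6 CPM in Wt MG at 2 dpi and 24.7, 31.8 and 25.1 CPM in *mych*-/- MG. It rose 1.77-fold, the smallest called rise of the 55 genes, and its mutant libraries overlapped the uninjured ones. The 7 genes of this group without a genotype call (*bop1*, *rrp8*, *rrp15*, *ebna1bp2*, *nip7*, *noc2l* and *gnl3l*) had changes from -1.23 ± 0.29 in *ebna1bp2* to -0.63 ± 0.20 in *gnl3l*. Of the unmatched *pes*, the table holds *PES1* at 29.8, 24.2 and 24.4 CPM in uninjured MG, 115, 136 and 141 CPM in Wt MG at 2 dpi and 44.3, 67.3 and 63.9 CPM in *mych*-/- MG. Its groups were separate, with changes of 2.32 ± 0.21 and -1.16 ± 0.20 (adjusted p = 0.0242 between genotypes). For *UTP14C* the changes were 1.82 ± 0.24 with injury and -0.997 ± 0.24 between genotypes (adjusted p = 0.0581).

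Late maturation and export of the large subunit were represented by 3 genes, which all rose with injury, by a median of 1.56. The gene *nop53*, whose product guides trimming of the precursor, was at 70.5, 53.5 and 69.8 CPM in uninjured MG, 161, 179 and 230.2 CPM in Wt MG at 2 dpi and 81.2, 95.1 and 85.5 CPM in *mych*-/- MG. The mutant libraries stood just above the uninjured ones, at -1.12 ± 0.19 from Wt (adjusted p = 0.0242) and 0.43 ± 0.19 from uninjured MG (adjusted p = 0.123), which was not called. The export adaptor gene *nmd3* was at 12.6, 14.4 and 11.5 CPM in uninjured MG, 57.2, 80.3 and 75.3 CPM in Wt MG at 2 dpi and 37.0, 48.4 and 39.8 CPM in *mych*-/- MG. It rose 5.54-fold and was separate between genotypes but not called, at -0.76 ± 0.20 (adjusted p = 0.0735). The GTPase gene *gnl2* was at 34.1, 33.4 and 29.6 CPM in uninjured MG, 59.2, 73.9 and 81.5 CPM in Wt MG at 2 dpi and 55.9, 46.5 and 45.1 CPM in *mych*-/- MG. It had the smallest rise of the 3, 2.21-fold, and a genotype change of -0.54 ± 0.19 (adjusted p = 0.143).

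Nucleolin and nucleophosmin bind pre-ribosomes and are among the most abundant nucleolar proteins. Nucleolin (*ncl*) was at 423, 376 and 410.4 CPM in uninjured MG, 1312, 1558 and 1494 CPM in Wt MG at 2 dpi and 594, 757 and 682 CPM in *mych*-/- MG. The groups were separate, with changes of 1.85 ± 0.19 with injury and -1.10 ± 0.19 between genotypes (adjusted p = 0.023). Nucleophosmin (*npm1a*, ENSDARG00000014329) was at 20.9, 19.9 and 17.0 CPM in uninjured MG, 323, 404 and 387 CPM in Wt MG at 2 dpi and 64.4, 112 and 87.9 CPM in *mych*-/- MG. All Wt 2 dpi libraries were far above all others, and the mutant libraries were in turn far above the uninjured ones. It rose 19.2-fold with injury (4.27 ± 0.25, adjusted p = 4.27e-07) and was 4.21-fold lower in *mych*-/- MG (-2.07 ± 0.22, adjusted p = 0.00356), the largest genotype change of the 55 genes.

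The medians of the steps ran from 1.56 for late large subunit factors to 3.13 for box C/D proteins with injury, and from -0.76 for late large subunit and small subunit maturation factors to -1.59 for nucleolin and nucleophosmin between genotypes. The 12 further processome genes had a median of 0.89 in the mutant against uninjured MG, and the box C/D genes 1.76. Differences between steps were not tested. By gene, 28 factors were called in all 3 comparisons. The genes *mphosph10* and *nop53* were called with injury and between genotypes but not in the mutant against uninjured MG. Another 16 were called in both comparisons with uninjured MG but not between genotypes. The 3 comparisons share libraries, and the shares of all tested genes with these patterns were not counted.

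**Figure D3:**
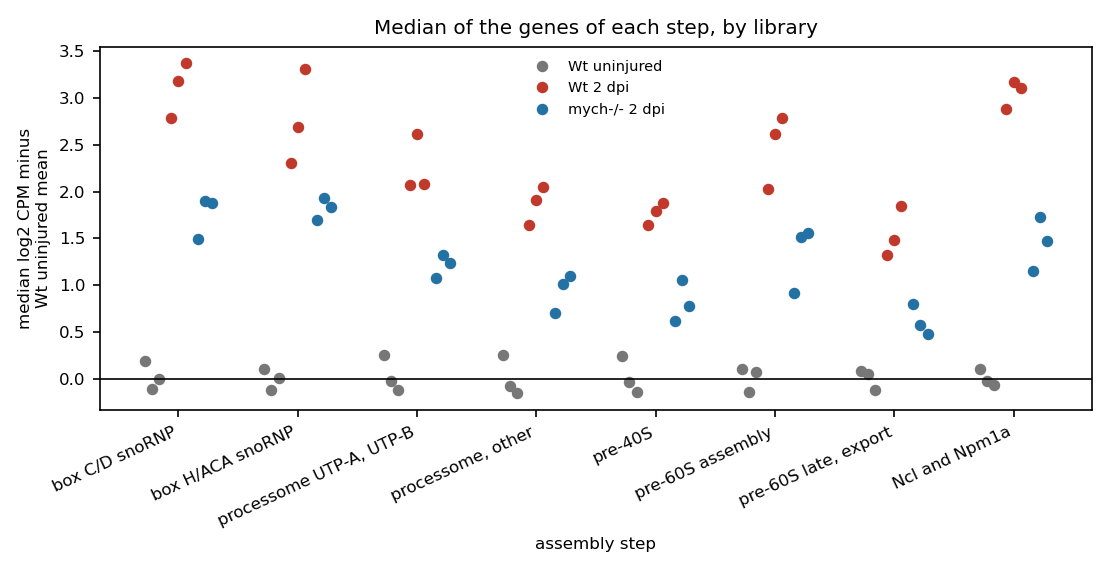
Median over the genes of each assembly step of log2 CPM minus the mean of the uninjured libraries, 1 point per library. In all 8 steps every Wt 2 dpi point lies above every *mych*-/- point and every *mych*-/- point above every uninjured point.

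Within a group, single libraries were often the lowest or the highest for these factors. Wt 2 dpi replicate 1 was the lowest of its group for 48 of the 55 genes. It was also the library with the high sum of pigment epithelium markers. Within its group it had the highest sums of rod, cone, bipolar, amacrine and ganglion, and horizontal cell markers as well. Its sum of MG markers was the lowest, at 15235 CPM against 23353 and 24888 CPM in replicates 2 and 3. For microglia and endothelial markers it lay between the other libraries of its group. The part of these cells in its levels was not tested. Of the mutant libraries, replicate 1 was the lowest for 41 genes and replicate 2 the highest for 36. These ranks were not counted over all genes, so whether they are particular to the factors is not known. The median SD of log2 CPM over the 55 genes was 0.230 in uninjured, 0.270 in Wt 2 dpi and 0.208 in mutant libraries, against 0.361, 0.419 and 0.404 over all genes. In the gene order of the RefSeq annotation of zebrafish assembly GRCz12tu, 4 pairs of these factors lie within 3 protein-coding genes of each other, namely *nop2* and *emg1*, *utp11* and *gnl2*, *nip7* and *nob1*, and *wdr12* and *nop58*. The 55 genes lie on 22 of the 26 sequences that this annotation names as places of protein-coding genes. How many such pairs other sets of 55 genes hold was not counted.

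Transcripts of *mych* itself were read at 20.0, 11.0 and 25.9 CPM in uninjured MG, 180.4, 233 and 319 CPM in Wt MG at 2 dpi and 145, 197 and 158 CPM in *mych*-/- MG. The injured groups overlapped, and *mych* rose 12.8-fold with injury (adjusted p = 7.61e-06) with a genotype change of -0.55 ± 0.30 (adjusted p = 0.335). A frameshift need not lower the transcript, so this level does not check the labels.

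Other genes of the pathway, listed by role, were examined beside the 55 factors. Of 74 symbols, 68 gene IDs were tested, and 63 were called higher and 1 lower with injury, with a median of 1.89. Of all tested genes, 22.3% were called higher and 19.8% lower. Between genotypes 22 were called lower and 0 higher, beside 1.33% and 0.366% of all tested genes. Their median was -0.96, and all 68 changes were below 0. As for the 55 factors, the genotype count rested on single libraries. Without Wt 2 dpi replicate 2 and 3 there were 1 and 3 calls, beside 0.0282% and 0.169% of all genes called lower. Without *mych*-/- replicate 1 and 3 there were 0 and 2, beside 0.0328% and 0.0661%. Without an uninjured library there were 13, 11 and 15, beside 0.791%, 0.768% and 1.07% called in either direction. Without Wt 2 dpi replicate 1 and *mych*-/- replicate 2 there were 32 and 25, beside 2.56% and 2.94% called lower. The count was 10 when libraries were scaled by their total alone, beside 1.04% of all genes called in either direction. Small subunit factors had 25 of 26 IDs called higher with injury and 11 lower in the mutant. Large subunit factors had 27 of 28 and 10.

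Genes for transcription of the precursor RNA by RNA polymerase I had 11 of 14 IDs called higher with injury and 1 of 14, the polymerase subunit gene *polr1e*, called lower in the mutant. The shares over all tested genes were 22.3% and 1.33%. The gene called lower with injury was *ubtfl*, related to the transcription factor gene *ubtf*. Among these 14 IDs, *ubtf* and *taf1b* were not called with injury. In the other lists of the 68 IDs, the small subunit factor gene *esf1* and the large subunit factor gene *mdn1* were not called. In the mutant against uninjured MG, 37 of the 68 were called higher and 1 lower, against 16.3% and 9.53% of all tested genes.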

How the data were processed

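RNA of GFP+ MG was enriched for polyA and sequenced, and the submitters' processing notes name cutadapt 2.3, FastQC 0.11.8, STAR 2.7.8a, RSEM 1.3.3 and DESeq2 and the builds GRCz11 and GRCh38, without their roles. Whether strand was used, and which annotation release, is not given in the sources used here, so genes that overlap or lie antisense are uncertain, as are near-identical copies. The authors deposited raw, unnormalized counts for each Ensembl gene in 9 library columns. Groups were taken from the sample labels. Symbols came from a names table, which gave one for 93.4% of the gene IDs and mixes zebrafish and human styles.

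Genes were kept by filterByExpr by group, scaled by TMM and fitted with edgeR 4.0.16 (R 4.3.3) as 1 robust quasi-likelihood model in which each of the 3 groups had its own mean, with no covariate. Calls used an adjusted p of at most 0.05 over all genes tested and a log2 fold change beyond 0.5 in either direction. The log2 CPM values used a prior count of 2. The members and the lists of other factors, cell type markers, cell cycle genes and Myc family genes were chosen with earlier results of these data known. Values in every library are given for genes called between genotypes, the largest and the smallest injury change in each step of at least 3 genes, genes not called with injury, *rrp9*, *imp3* and *imp4*, and *mych*. Members were sorted into 8 steps by role.

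The alternatives were DESeq2 1.42.0's Wald test, fits restricted to the 6 libraries of a comparison, a non-robust dispersion, 3 other scalings, dropping the low count filter, a block for replicate number, other limits on the fold change, and omission of each library in turn. On simulated counts for the comparison of injury, edgeR called 2 of 63 genes changed 2-fold, 42 of 66 changed 4-fold and 70 of 71 changed 8-fold, and 5 of 19713 unchanged genes. The simulation gave every gene the same dispersion, set in advance and not fitted to these data. Its rates therefore do not measure how often changes of the factors here would be called. Library totals ran from 46835977 to 77133615 counts, and all members but *utp18* had at least 87 counts in each library. Python 3.11.15, pandas 2.3.3 and matplotlib 3.10.9 were used for tables and figures. A search of promoters was not done here.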

Additional observations from a re-analysis of the deposited data

How the results depend on the processing

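No change in direction was seen for the counts and medians under any alternative run. With injury, 53 of 55 genes were called in every analysis but the one that required a log2 fold change above 1, which gave 51. Of all tested genes, 33.1% to 46.0% were called with injury in either direction in those analyses, and 33.8% with that limit. Between genotypes, the 30 calls became 46 with DESeq2, 20 with scaling by library size only, 24 with the upper quartile, 26 with only the 6 libraries compared and 36 without the filter, and leaving out 1 library gave 1 to 40. Median changes between genotypes stayed between -1.20 and -0.98 when a library was left out. Of the other pathway genes, 22 were called between genotypes, against 42 with DESeq2, 10 with library size only, 13 with the upper quartile, and 0 to 32 with a library left out. Of all tested genes, 1.69% were called in either direction in the main fit and 8.68% with DESeq2. The share was 1.04% with library size only, 1.08% with the upper quartile, 1.13% with the 6 libraries compared and 1.94% without the filter. The median of the mutant against uninjured MG was 1.16 to 1.41 with a library left out, the highest without Wt uninjured replicate 1. In that comparison the all-gene median shifted by 0.15 with library size as the only scaling, and by less than 0.1 in the others. The cause of these differences was not tested.

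The replicate numbers were not used to pair libraries in the main fit. The 9 correlations between same-numbered libraries ran from -0.08 to 0.09 and 0 were over 0.1. Those between differently numbered libraries ran from -0.18 to 0.12. With so few libraries per group, such values cannot exclude that same-numbered libraries shared a preparation. With the replicate block, 11 of the 30 genes were still called between genotypes and none was added, and 11 of the other pathway genes were called. In that fit 0.542% of all tested genes were called in either direction.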

Other observations

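Cell cycle genes, which are not ribosome factors, were also examined in the 3 comparisons. Of 13 gene IDs, 12 were called higher with injury, with a median log2 fold change of 6.22, and the same 12 were called higher in the mutant against uninjured MG, with a median of 5.28. Between genotypes the median was -0.996, and the proliferation marker gene *mki67* and the cyclin gene *ccnb1* were called lower. Over all tested genes, 22.3% were called higher with injury, 16.3% higher in the mutant against uninjured MG and 1.33% lower between genotypes. Of 7 gene IDs of the Myc family and its partner *max*, 3 were called higher with injury (*mych*, 1 of the 2 IDs with the symbol *MYC*, which stands for both *myca* and *mycb* here, and the ID with the symbol *MYCL*) and 0 were called between genotypes with edgeR.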
